A study of Mus musculus with 6 samples.

Results

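Cytochrome P450 genes of families 1 to 4 were examined in mouse liver. They were all genes whose array symbol begins with Cyp, a family number from 1 to 4, a subfamily letter and a number, and whose brightest probe read above an intensity of 129, the detection level, on at least 1 of 6 arrays. Of 65 such symbols with a probe, 42 met the rule, out of 19057 named genes on the array. The other 23 stayed below the level, and 3 symbols that end in a further letter, such as Cyp4a12a, were outside the rule. The members just inside were Cyp3a44, Cyp2b19 and Cyp4f40, with highest intensities of 129.4, 137 and 138. Cyp2j5, Cyp2s1 and Cyp4f17 lay just outside, at 128, 128 and 127.

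Each array held biotin-labelled RNA from a pool of FVB mice aged 10 weeks, 1 array per group. LIXs mice carry a transgene for Xbp1s, the active spliced form of the transcription factor Xbp1, behind a promoter that doxycycline (Dox) turns on. The groups were LIXs mice after 24 h of Dox chow and wild-type (WT) mice after 24 h of Dox chow, LIXs and WT mice after 48 h of Dox chow, WT mice refed for 2 h, and WT mice fasted for 24 h. All 4 Dox groups, WT included, received Dox and went without food for 6 h before the liver was taken, and no Dox is given in the labels of the refed and fasted mice. The labels give the tissue as liver slices. How many mice made a pool, their sex, and what drives the Dox-dependent activator in LIXs mice are not stated in the labels.

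P450 enzymes of these families are heme proteins, mostly held in the membrane of the endoplasmic reticulum, that insert an oxygen atom into drugs, steroids, fatty acids and bile acids. Their electrons come from P450 oxidoreductase. In the liver many are switched on by nuclear receptors, with the xenobiotic receptors CAR (Nr1i3) and PXR (Nr1i2) acting on Cyp2b, Cyp2c and Cyp3a genes, PPARA on Cyp4a genes and the aryl hydrocarbon receptor on Cyp1a genes. Several mouse members differ between the sexes, and most lie in tandem clusters of close paralogs.

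The promoters of the Cyp2b and Cyp3a genes that differed most by genotype label are shown first. Tested members of these subfamilies differed in the same direction, as did those of the Cyp2c, Cyp2d and Cyp4f subfamilies. Each sequence is the 250 bases before the transcript start that RefSeq's promoter table lists first for the gene, read 5′ to 3′ on the gene's strand, in build GRCm38.p6. That start is the outermost annotated start of Cyp2b10 and Cyp3a11, and lies inside the annotated gene by 59 bases for Cyp2b9, 107 for Cyp2b13 and 26 for Cyp3a25, so part of those 3 windows is annotated as gene. It is the C57BL/6J reference and not FVB sequence. Capitals mark AGGTCA or its reverse complement TGACCT, the half-site that nuclear receptors of the CAR and PXR type are known to bind. Cyp2j9 and Cyp4f15 also had an averaged difference of at least 1 on the log2 scale. Their windows are not shown and held 0 matches to this half-site. The Cyp2b windows lie on the plus strand at chr7:26173159-26173408 (Cyp2b9), chr7:26061245-26061494 (Cyp2b13) and chr7:25897408-25897657 (Cyp2b10). The Cyp3a windows lie on the minus strand at chr5:145879855-145880104 (Cyp3a11) and chr5:146009619-146009868 (Cyp3a25).
Cyp2b9: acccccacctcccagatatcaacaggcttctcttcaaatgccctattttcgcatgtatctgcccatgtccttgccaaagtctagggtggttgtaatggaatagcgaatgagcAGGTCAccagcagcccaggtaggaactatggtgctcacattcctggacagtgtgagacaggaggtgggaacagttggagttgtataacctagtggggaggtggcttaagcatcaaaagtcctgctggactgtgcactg
Cyp2b13: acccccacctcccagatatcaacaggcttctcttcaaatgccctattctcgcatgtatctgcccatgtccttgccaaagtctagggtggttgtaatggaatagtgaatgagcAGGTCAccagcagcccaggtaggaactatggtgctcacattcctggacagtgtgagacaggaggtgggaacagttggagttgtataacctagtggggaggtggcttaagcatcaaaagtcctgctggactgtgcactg
Cyp2b10: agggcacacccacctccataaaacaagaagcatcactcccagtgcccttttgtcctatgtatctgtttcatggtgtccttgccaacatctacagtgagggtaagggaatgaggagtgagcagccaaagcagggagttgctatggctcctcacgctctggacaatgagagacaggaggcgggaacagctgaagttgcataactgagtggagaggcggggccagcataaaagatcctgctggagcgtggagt
Cyp3a11: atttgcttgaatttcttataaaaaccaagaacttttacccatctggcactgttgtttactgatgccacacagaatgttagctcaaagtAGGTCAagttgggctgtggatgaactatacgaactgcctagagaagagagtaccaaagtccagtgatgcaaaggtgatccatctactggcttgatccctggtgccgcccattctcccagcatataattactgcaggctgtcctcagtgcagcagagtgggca
Cyp3a25: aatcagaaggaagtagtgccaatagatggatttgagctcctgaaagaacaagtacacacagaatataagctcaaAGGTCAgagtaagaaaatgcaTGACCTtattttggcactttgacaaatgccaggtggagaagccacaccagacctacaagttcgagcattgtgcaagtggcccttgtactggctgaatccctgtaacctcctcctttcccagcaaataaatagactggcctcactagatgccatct

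The windows of Cyp2b9 and Cyp2b13 were 99.2% identical, with 2 of 250 bases not matching, and each held AGGTCA at the same place, beginning 138 bases before that transcript start. That of Cyp2b10 was 71.0% identical to either in a global alignment and held no such match. Sequence further upstream was not searched, so a gene with no match here may hold the half-site elsewhere. Cyp3a11 and Cyp3a25 were 55.6% identical, with 1 match in the Cyp3a11 window and 2 in that of Cyp3a25. The half-site was in 11 of the 33 member windows (33.3%), in 6 of the 13 of members called higher in the averaged comparison described next (46.2%), and in 13.8% of all 27025 promoter windows of this length. The 13 include Cyp2b13, Cyp2b23, Cyp2j9 and Cyp4f16, whose calls are no evidence or are set aside for the reason given below. Cyp2b13 and Cyp2b23 are among the 6. Close paralogs among these windows are not independent of each other. A further 4 motifs were searched on both strands. GCGTG, the core of the aryl hydrocarbon receptor's element, was in 5 of 33 member windows and 28.2% of all windows. CCACG, part of the element known for unfolded-protein-response factors, was in 5 of 33 and 28.2%, and ACGT, the core known for Xbp1s, in 3 of 33 and 27% of all windows. TTATGTAA, the site of D-box clock factors, was in 0 of 33 and 0.862% of all windows. CCACG and GCGTG overlap where they meet as GCGTGG, and a match describes letters in the window only.

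Xbp1 itself read 4537 on the array labelled LIXs and 4259 on the one labelled WT at 24 h, and 4350 and 5210 at 48 h, so its single probe did not separate the labels. Dnajc3, a known Xbp1s target that encodes an endoplasmic reticulum co-chaperone, read 784 at 24 h and 1138 at 48 h under the LIXs label, and 2081 and 2368 under the WT label. It fell by 1.32 ± 0.22 on the log2 scale (SE, limma adjusted p = 0.023). A known target is thus lower under the label of the mice made to express Xbp1s. Whether the LIXs and WT labels are exchanged was not tested. If they are, every LIXs minus WT difference given here changes sign, and genes said to have risen are lower in LIXs mice. Rose, fell, higher and lower below refer to the labels only. The arrays had between 7471 and 7547 named genes above the detection level. Hepatocyte markers Apoa1, Ttr, Cps1 and Serpina1a read between 3642 and 43615 on the arrays, while the Alb probe read 130 to 163, Fgb was detected on the fasted array only and Tat on none. The 5 tested hepatocyte markers were all above 0 for LIXs minus WT averaged over both times, with a median of 0.51 (Alb 0.68, Cps1 0.62, Serpina1a 0.51, Apoa1 0.08 and Ttr 0.07) and 0 past the test. Of 6 tested markers of sinusoidal endothelium 5 were above 0, with a median of 0.40 and 0 past the test. The array labelled fasted correlated less with the others over all probes (r = 0.953 to 0.968) than the other arrays did among themselves (0.972 to 0.990). The array labelled LIXs at 24 h carried pancreatic transcripts. The summed intensity of 12 acinar markers was 14384 there and 2536 on the array labelled WT at 24 h, 3366 and 2878 on those labelled LIXs and WT at 48 h, 2212 refed and 3410 fasted. For LIXs minus WT, all 12 were above 0 at 24 h with a median of 3.10, and 10 of 12 at 48 h with a median of 0.35, among them Rnase1 at 0.68, Clps at 0.63 and Cpb1 at 0.61.

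P450 genes were mostly higher on LIXs-labelled arrays after 24 h and after 48 h of Dox. Of the 42 members, 38 were above the detection level on at least 2 of the 4 Dox arrays and were tested with limma, with the difference averaged over 24 h and 48 h. In this test 14 members were called higher and 0 lower. Over all 7652 genes tested, 4.33% were called higher and 4.47% lower. The members' median difference was 0.64 on the log2 scale, against 0.01 over all genes tested and 0.51 over the hepatocyte markers, whose part in the result was not tested. Differences were above 0 for 35 of the 38 members, or 92.1%, beside 50.8% of all genes, and above 0 at both times for the same number, beside 36.1%. Both arrays labelled LIXs read above both WT Dox arrays for 32 members (84.2%, against 29.1% of all genes) and for 0 members below them (26.9% of all genes). For 15 members both also read above the refed and fasted WT arrays (39.5%, against 9.91% of all genes).

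The filter matters for these counts. Cyp2b23, Cyp2j9 and Cyp4f16 were detected on both LIXs arrays and neither WT Dox array. They entered the test only through the group in which they were higher, so their calls are no evidence. Cyp2b13 was below detection on the WT array at 48 h and met the filter only with its LIXs arrays, so its call is set aside too. Of the 14, the 10 detected on all 4 Dox arrays remain. Among the 33 members detected on all 4 Dox arrays the count was again 14 higher and 0 lower, with 31 above 0 and a median of 0.64. Of these 14, 10 were called in both fits, and Cyp1a2, Cyp2c23, Cyp2d13 and Cyp2d26 came in. Over all genes the stricter fit called more, 454 higher and 465 lower, against 331 and 342 in the main fit. With 1 array per group, the test leans on a spread shared by all genes. It made 0 member calls without the time block, without a filter on dim probes, and with all 6 arrays (LIXs against 4 WT). A fit to 3 arrays cannot keep the block, so fits that leave out 1 array are read beside the 0 calls of all 4 arrays with no block: they gave 0 calls without either LIXs array, 4 without WT at 24 h and 9 without WT at 48 h. Without the 24 h LIXs array, 37 of 38 members were above 0 and the median was 0.55. In whole-liver RNA, more cells of a type and more RNA per cell cannot be told apart.

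**Figure D1:**
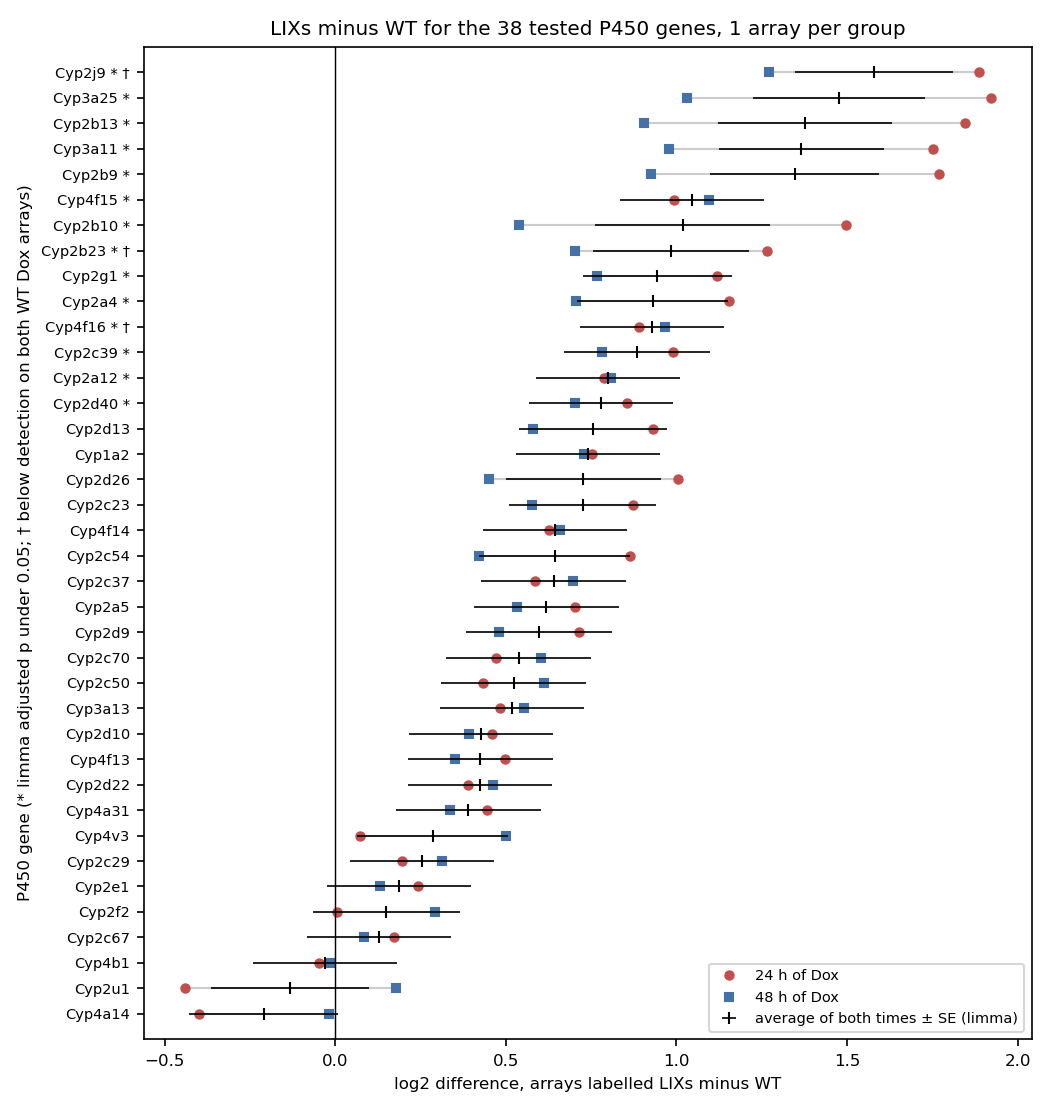
Log2 difference between arrays labelled LIXs and WT (horizontal axis) for each of the 38 tested P450 genes (vertical axis, ordered by the average). Red circles give the 24 h pair, blue squares the 48 h pair and black ticks the limma average with its SE; stars mark the 14 genes with an adjusted p under 0.05, all to the right of 0. Daggers mark Cyp2b23, Cyp2j9 and Cyp4f16, below detection on both WT Dox arrays, whose positions are not measured sizes. Cyp2b13 was below detection on the 48 h WT array, so its 48 h and averaged positions are not measured sizes either.

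The Cyp3a genes stood near the top. Cyp3a11, the main drug-oxidising Cyp3a enzyme of mouse liver and a classical PXR target, read 8675 and 7613 on the arrays labelled LIXs at 24 h and 48 h, and 2642 and 3907 on those labelled WT. The refed and fasted WT arrays read 1662 and 4039, so both LIXs arrays lay above all 4 WT arrays. Its log2 difference was 1.37 ± 0.24 (SE, limma adjusted p = 0.025), a 2.58-fold rise. Cyp3a25, from the same gene cluster, read 3118 and 2647 on the arrays labelled LIXs, against 891 and 1343 on those labelled WT, 1583 refed and 1171 fasted. It rose by 1.48 ± 0.25 (adjusted p = 0.025), again with both LIXs arrays above all 4 WT arrays. Cyp3a13 read 673 and 964 on the arrays labelled LIXs against 508 and 687 on the WT Dox arrays, a difference of 0.52 ± 0.21 that missed the threshold (adjusted p = 0.135), and 2 other probes for it differed in sign (0.37 and -0.52). Cyp3a44 was detected on the fasted array only. 

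Cyp2b9 and Cyp2b10 rose, and Cyp2b13 was called higher with 1 of its WT Dox readings below detection. Cyp2b9, a female-biased steroid hydroxylase, read 843 and 506 on the arrays labelled LIXs at 24 h and 48 h, and 313 and 311 on those labelled WT. It rose by 1.35 ± 0.25 (adjusted p = 0.026), and the refed and fasted WT arrays at 291 and 398 were below both LIXs arrays. Its near-twin Cyp2b13, also female-biased, read 247 and 151 on the arrays labelled LIXs, against 136 and 124 on the WT Dox arrays, of which the 48 h one was below the detection level. The fitted rise of Cyp2b13 was 1.38 ± 0.26 (adjusted p = 0.026), and the fasted WT array, at 155, overlapped the 48 h LIXs array. Its call is set aside, as it met the filter only with its LIXs arrays. Cyp2b10, the gene that phenobarbital induces through CAR, read 298 and 231 on the arrays labelled LIXs and 166 and 188 on the WT Dox arrays. It rose by 1.02 ± 0.26 (adjusted p = 0.038), but the refed and fasted WT arrays were higher than all of these, at 358 and 384. Cyp2b23 read 149 and 142 against 111 and 122 on the WT Dox arrays, both below detection, and was at least 1.43-fold higher, a bound that carries no independent test. Cyp2b19, known from mouse skin, passed the level on the 48 h LIXs array alone and was not tested. The 99.2% promoter identity of Cyp2b9 and Cyp2b13 shows how close these copies are. Probe sequences were not used here, so signal of 1 paralog on another's probe cannot be told apart.

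**Figure D2:**
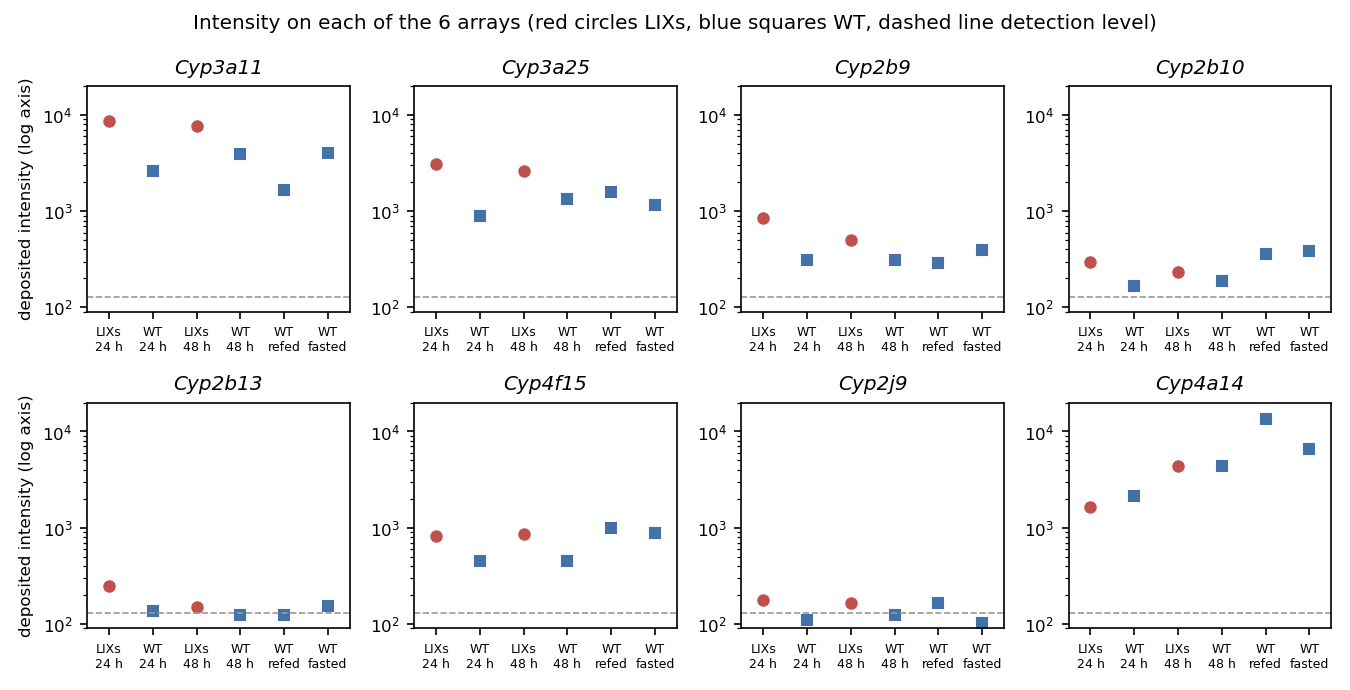
Deposited intensity (log axis) on each of the 6 arrays for the 7 called members with a fitted average of at least 1 on the log2 scale and for Cyp4a14; red circles are arrays labelled LIXs, blue squares WT, and the dashed line is the detection level of 129. For Cyp3a11 (8675 and 7613) and Cyp2b9 (843 and 506) the LIXs arrays lie above all WT arrays, whereas Cyp2b10 and Cyp4a14 were highest on the refed or fasted arrays.

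Of the 3 Cyp2a genes, which oxidise steroids and small aromatic compounds, 2 rose. Cyp2a4, a female-biased testosterone hydroxylase, read 572 and 372 on the arrays labelled LIXs at 24 h and 48 h, against 308 and 264 on the WT Dox arrays and 166 and 154 on the refed and fasted ones. It rose by 0.93 ± 0.22 (adjusted p = 0.035). Cyp2a12, a steroid and bile acid hydroxylase, read 6741 and 6041 on the arrays labelled LIXs and 3941 and 3493 on the WT Dox arrays, and rose by 0.80 ± 0.21 (adjusted p = 0.043). The refed array, at 6940, reached the LIXs level for Cyp2a12, and the fasted one, at 3697, did not. Cyp2a5, the coumarin hydroxylase, read 8426 and 8512 on the arrays labelled LIXs and 5210 and 5918 on the WT Dox arrays, a difference of 0.62 ± 0.21 (adjusted p = 0.089). Its 4 other detected probes gave averaged differences of 0.80 to 0.91.

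In the Cyp2c subfamily, which holds arachidonic acid epoxygenases and other lipid and drug oxidases, all 8 members were above 0 and 1 rose. That one was Cyp2c39, a retinoic acid hydroxylase in the mouse, with 1230 and 1462 on the arrays labelled LIXs, against 666 and 890 on the WT Dox arrays, and a rise of 0.88 ± 0.21 (adjusted p = 0.035). The refed array was the highest for this gene at 1682. Cyp2c70, the enzyme that makes muricholic acids in mice, read 15826 and 15496 on the arrays labelled LIXs and 11443 and 10228 on the WT Dox arrays, with a difference of 0.54 ± 0.21 (adjusted p = 0.124), and 16092 fasted. Cyp2c37 and Cyp2c50, epoxygenases, differed by 0.64 ± 0.21 and 0.52 ± 0.21 (adjusted p = 0.079 and 0.134). The smallest difference of the subfamily was that of Cyp2c67, at 0.13 ± 0.21, with 8512 and 7853 on the arrays labelled LIXs, against 7563 and 7413 on the WT Dox arrays. Cyp2c29 read 106 on the fasted array, below detection, and 151 to 177 on the others.

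The Cyp2d genes, relatives of the human drug oxidase CYP2D6, showed the same direction in all 6 tested members, with differences of 0.42 to 0.78. Cyp2d40 passed, with 882 and 700 on the arrays labelled LIXs, against 529 and 466 on the WT Dox arrays, and a rise of 0.78 ± 0.21 (adjusted p = 0.048). Cyp2d9, a male-biased testosterone hydroxylase, read 12095 and 10078 on the arrays labelled LIXs and 7413 and 7262 on the WT Dox arrays, a difference of 0.60 ± 0.21 (adjusted p = 0.100), and 13281 on the refed array. Cyp2d10 read 10521 on both LIXs arrays, against 7681 and 8036 on the WT Dox arrays. Cyp2d26 read 4259 and 3473 on the arrays labelled LIXs and 2171 and 2567 on the WT Dox arrays (0.73 ± 0.23, adjusted p = 0.069). Cyp2d34 was detected on the fasted array alone.

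Single members of other Cyp2 subfamilies ranged more widely. Cyp2j9, an arachidonic acid hydroxylase best known from brain, had a dim probe, with 178 and 166 on the arrays labelled LIXs and 111 and 122 on the WT Dox arrays, both below detection. It was at least 2.15-fold higher, a bound that carries no independent test, and the refed WT array read 164. Cyp2g1, typical of olfactory mucosa, read 174 and 165 on the arrays labelled LIXs, against 130 and 136 on the WT Dox arrays, close to the detection level. It rose by 0.94 ± 0.22 (adjusted p = 0.032), but was not called without background correction or with the mean of all detected probes. Its other probe, detected on 1 array, gave 1.25 at 24 h and -0.15 at 48 h. In contrast, Cyp2e1, the pericentral oxidase of ethanol and acetaminophen, read 34539 and 31033 on the arrays labelled LIXs and 29215 and 28377 on the WT Dox arrays (0.19 ± 0.21, adjusted p = 0.604). Cyp2f2, the periportal naphthalene oxidase, read 9986 and 10333 against 9949 and 8460 on the WT Dox arrays (0.15 ± 0.22, adjusted p = 0.694). These bright members were thus close between the labels, which does not show that they are unchanged. Cyp1a2, the caffeine oxidase and the member of family 1 that was detected, read 4734 and 3824 on the arrays labelled LIXs, against 2847 and 2344 on the WT Dox arrays, with 0.74 ± 0.21 just missing the threshold (adjusted p = 0.053). Cyp2u1, a fatty acid hydroxylase, read 131 and 143 against 145 and 137 and averaged -0.13 ± 0.23.

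Family 4, the fatty acid and eicosanoid omega-hydroxylases, was divided. Of its 8 tested members Cyp4f15 rose, and Cyp4f16 was called higher from readings below detection on the WT Dox arrays. Cyp4f15 read 812 and 857 on the arrays labelled LIXs and 454 and 451 on the WT Dox arrays, and rose by 1.04 ± 0.21 (adjusted p = 0.029), while the refed and fasted arrays, at 986 and 891, were higher than both. Cyp4f16 read 133 and 137 on the arrays labelled LIXs, close to the detection level, against 108 and 110 on the WT Dox arrays. It was at least 1.16-fold higher, a bound that carries no independent test. Cyp4f14, which inactivates leukotriene B, read 6134 and 5491 on the arrays labelled LIXs, against 4004 and 3510 on the WT Dox arrays (0.64 ± 0.21, adjusted p = 0.077). Cyp4a14, a PPARA target known to respond to fasting, was not higher under the LIXs label. It read 1652 and 4340 on the arrays labelled LIXs at 24 h and 48 h and 2152 and 4400 on those labelled WT, with an average of -0.21 ± 0.22 (adjusted p = 0.565). Its paralog Cyp4a31 differed by 0.39 ± 0.21 (adjusted p = 0.250), Cyp4v3 by 0.29 ± 0.22 and Cyp4b1, known from lung, by -0.03 ± 0.21.

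**Figure D3:**
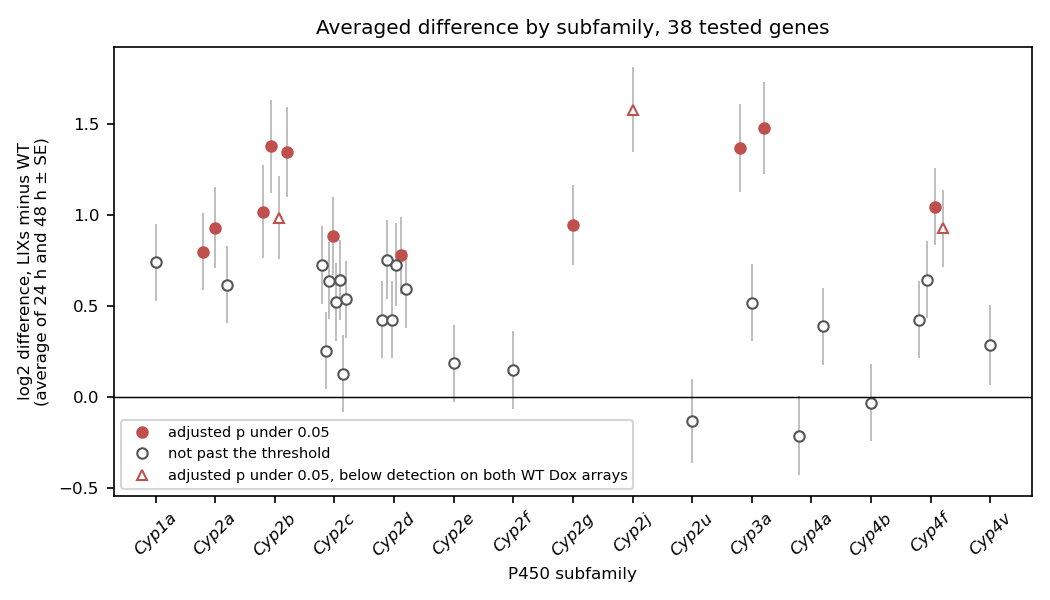
Averaged log2 difference between arrays labelled LIXs and WT, with its SE, for each of the 38 tested members by subfamily (horizontal axis). Filled red points passed the limma test and open triangles passed it from readings below detection on both WT Dox arrays. Of the Cyp2b points 3 are filled and 1 is a triangle, whereas the Cyp2e, Cyp2f, Cyp2u, Cyp4a and Cyp4b points are open. Cyp2b13, among the filled points, was below detection on the 48 h WT array.

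At 24 h alone, 10 of the 38 members detected on either array were at least 2-fold higher on the array labelled LIXs and 0 lower, against 3.72% and 4.91% of all genes. The median was 0.73, and 35 of 38 were above 0, beside 51.1% of all genes. Of the 10, 8 were detected on both arrays, the largest being Cyp3a25 at 1.92, Cyp2b13 at 1.85 and Cyp2b9 at 1.77. The other 2 were below detection on the WT array, with Cyp2j9 at least 2.33-fold higher and Cyp2b23 at least 1.53-fold, a bound under the 2-fold threshold. The lowest of all were Cyp2u1 at -0.44 and Cyp4a14 at -0.40. At 48 h 3 of 38 were at least 2-fold higher by the fitted values and 0 lower (1.59% and 2.47% of all genes). Of the 3, Cyp4f15 at 1.09 and Cyp3a25 at 1.03 were detected on both arrays, while Cyp2j9, below detection for WT, has a bound of 1.99-fold, under the threshold. The median at 48 h was 0.59, and 37 of 38 were above 0, beside 50.2% of all genes. Of the 10 called members detected on all 4 Dox arrays, 8 had the larger difference at 24 h. For Cyp3a11 both labels differed between the times: the array labelled LIXs was lower at 48 h than at 24 h (7613 and 8675) and that labelled WT was higher (3907 and 2642). The 24 h array labelled LIXs is also the one with the pancreatic transcripts (median acinar difference 3.10, against 0.35 at 48 h), and their part in the result was not tested. Whether the difference itself changed between times was not tested, for want of a second array per group.

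Within a label, at most 1 member in each direction differed at least 2-fold between 48 h and 24 h. Such counts are too small to set apart from the shares of all genes. Cyp4a14 was the 1 member at least 2-fold higher at 48 h on the WT arrays (4400 against 2152, log2 difference 1.06, with 2.45% of all genes at least 2-fold higher) and on the LIXs arrays (4340 against 1652, 1.45, with 0.5% of all genes). Cyp2b13 was the 1 member at least 2-fold lower at 48 h on the LIXs arrays, by -1.41 (0.825% of all genes), and on the WT arrays 0 were lower (1.3%). Between 48 h and 24 h, 13 of 35 members were above 0 on the WT arrays (49.1% of all genes) and 10 of 39 on the LIXs arrays (53.4%). These values share arrays with the genotype comparisons.

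Between the refed and fasted arrays the members differed about as often as all genes did. Between the WT arrays refed for 2 h and fasted for 24 h, 5 of 41 members were at least 2-fold higher refed and 4 lower, near the 12.3% and 11.9% of all genes, and 21 were above 0 (46.1% of all genes). With detection on both arrays the counts were 3 and 2. The 5 neutrophil markers summed to 19191 refed and 5045 fasted, of which Lcn2, which hepatocytes also make in the acute phase, was 90.2% and 86.6%. S100a8 read 1436 refed and 343 fasted, and Ngp was below detection refed and read 135 fasted. The part of these genes in the members' values was not tested. Cyp4a14 read 13635 refed and 6574 fasted (1.06) and Cyp4a31 1830 and 946 (1.02), and for both genes these were the highest readings of the 6 arrays. Cyp4a14, described above as known to respond to fasting, thus read higher under the refed label. The detected PPARA targets had a median of 0.86 in this comparison, from 1.69 for Ehhadh to -0.98 for Fgf21. The reason was not tested. Cyp2d26 read 4469 refed and 1842 fasted (1.32). Cyp2j9 and Cyp2c29 were below detection on the fasted array, and were at least 1.93-fold and 1.62-fold higher refed. Lower on the refed array were Cyp3a11 (1662 refed and 4039 fasted, -1.33), Cyp2u1 (137 and 181, 0.499-fold), Cyp4f16 (117 and 170, at least 2.11-fold lower) and Cyp2d34 (101 and 144, at least 1.40-fold lower).

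Other probes of the same gene bore on how far each comparison can be read. Further probes were detected for 9 members, 16 in all. Of the called members only Cyp2g1 is among the 9, so each other call rests on 1 detected probe. For LIXs minus WT averaged over both times, 14 of the 16 had the sign of the brightest probe, the exceptions being the second Cyp2u1 probe and 1 dim Cyp3a13 probe. For refed minus fasted only 5 of the 16 did. The brightest Cyp2d26 probe gave 1.32, for example, where the other 2 gave -0.69 and 0.25, and Cyp2c50 gave -0.41 where others gave 2.44 and 0.34. The values between refed and fasted are therefore those of single probes.

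**Figure D4:**
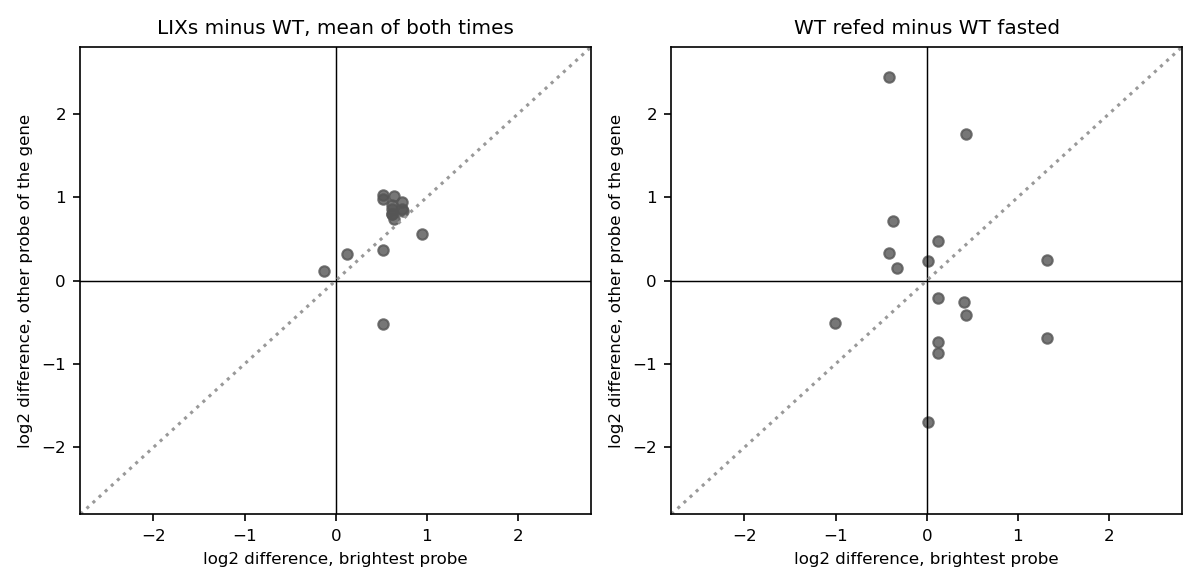
Log2 difference of each further detected probe (vertical axis, 16 probes of 9 members) against that of the brightest probe of the same gene (horizontal axis), for LIXs minus WT (left) and WT refed minus WT fasted (right); the dotted line marks equal values. On the left 14 of 16 probes share the sign of the brightest probe, on the right 5 of 16.

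Genes around the P450 enzymes were read from the same fit, in which 4.33% of all genes were called higher and 4.47% lower. Of 19 tested receptors and regulators 3 rose and 0 fell, with a median of 0.30. Nr1i3, which encodes CAR, read 1252 and 1403 on the arrays labelled LIXs, against 519 and 781 on the WT Dox arrays, and 1439 refed and 1192 fasted. Nr1i2, which encodes PXR, read 332 and 300 against 179 and 220 on the WT Dox arrays, 232 refed and 209 fasted, and rose by 1.09 ± 0.24 (adjusted p = 0.031), as Nr1i3 did by 1.19 ± 0.23. Tef, a clock-linked activator of drug-metabolism genes, rose by 0.88 ± 0.21. Hnf4a, a master hepatocyte regulator, differed by 0.71 ± 0.21 and missed the threshold (adjusted p = 0.063), and Foxa1 was lowest at -0.61 ± 0.21. Ahr and Ahrr were below detection, and Ppara differed by -0.04 ± 0.21. Of 16 tested CAR and PXR targets outside families 1 to 4, 5 rose and 0 fell (median 0.59). They were the conjugation enzymes Ugt1a1 (1.03), Ugt2b35 (1.03) and Sult1d1 (0.92), the exporter Abcc3 (0.86) and Aldh1a1, a retinal dehydrogenase (0.82), while Gstm2 was lowest at -0.76 ± 0.21 (adjusted p = 0.052).

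Other oxidative enzymes did not all share the P450 pattern. Of 11 flavin monooxygenases and carboxylesterases 3 rose, namely Fmo1 (0.95 ± 0.21), Ces1f (0.89 ± 0.21) and Ces1d (0.88 ± 0.21), with a median of 0.64. Of 8 tested P450 genes of other families 0 passed in either direction, with a median of 0.25, from 0.66 ± 0.22 for Cyp7a1, the rate-limiting enzyme of bile acid synthesis, to -0.43 ± 0.28 for Cyp8b1. Electron supply and heme genes had 0 of 16 past the test and a median of 0.09, from 0.64 for Hmox2 to -0.43 for Alad, and Alas1, the rate-limiting heme enzyme, at 0.47 ± 0.21. Of 13 PPARA targets 2 rose, Acot1 by 1.24 ± 0.28 and Plin5 by 0.77 ± 0.21 (median 0.50). The 1 tested AhR target, Ugt1a6a, differed by -0.06 ± 0.27.

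Sex and zonation lists were mixed. Of 9 listed female-biased P450 genes 7 had a probe. Cyp3a16 and Cyp2c40 were below detection on all arrays, and Cyp3a44 was detected on the fasted array only and not tested. The 4 tested ones were called higher, as listed above (Cyp2b9, Cyp2b13, Cyp2b10 and Cyp2a4), the call of Cyp2b13 being set aside there. Beside them, 36.8% of all tested members and 4.33% of all genes were called higher. Cyp2b9, Cyp2b13 and Cyp2b10 are paralogs, so their calls are not independent. Of 5 male-biased P450 genes 0 passed and 3 were above 0, including Cyp4a12a, outside the rule, at 0.37 ± 0.21. Outside the P450 genes, the female-biased Sult2a2 and A1bg rose by 1.83 ± 0.39 and 1.20 ± 0.21 (2 of 3), and the male-biased Selenbp2 and Hsd3b5 by 1.06 ± 0.24 and 1.03 ± 0.22 (2 of 7). Among 7 tested regulators of the sex program Ghr, the growth hormone receptor, rose by 0.83 ± 0.21. Pericentral markers had 0 of 6 past the test and a median of 0.08, and periportal ones 2 of 7, Cdh1 (0.91 ± 0.21) and Pck1 (0.77 ± 0.21), with a median of 0.64. Hal, at 0.98 ± 0.29, missed the threshold (adjusted p = 0.060). Markers of kidney and small intestine were below detection on all arrays apart from Slc12a1 (119 to 148) and Lct (107 to 131).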

How the data were processed

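The authors deposited a table of linear probe intensities for 45281 probes on 6 Illumina bead arrays, made with GenomeStudio per the submitters' processing notes; version, background handling and normalization are not stated there. Sorted values of the arrays lay within 0.0199 on the log2 scale of each other, so they were treated as already normalized, with the background still in them. A further table, holding 6 signal columns whose names match no sample, was not used.

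The background was the mode of all intensities, 109, with an SD of 7.67 from the lower side mirrored, and the detection level of 129 left a share of 0.01 of it above. These entered limma's normexp (limma 3.58.1, R 4.3.3) in place of control probes, with an offset of 16, quantile normalization and log2. Each gene was represented by its brightest probe. Gene names came from the platform annotation, matched by identifier to RefSeq.

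The averaged difference was fitted in limma (lmFit, eBayes) to the 4 Dox arrays, time being a block, over 7652 genes detected on at least 2 of them, with Benjamini-Hochberg adjustment to 0.05. It has 1 residual degree of freedom, to which the prior added 9.69, so an SE is mostly that of all genes together. The spread it rests on is how far the LIXs minus WT differences at 24 h and 48 h disagree. No pool of a group was repeated, so p-values measure neither the spread between repeat pools nor that between animals. The script was tested on simulated data. Comparisons of 2 arrays had no test and were counted at 2-fold. A fold against an array below detection is a lower bound, against the higher of that array's lowest detected signal and the probe's own. The number of arrays limits the precision, and intensities of different probes are not compared as levels.

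The members and gene lists were chosen with earlier results of these data known. Given in full were members past the test, at least 2-fold different between 2 arrays, or among the 10 brightest, and those next to the detection level. Protein sequences were not used here. Alternatives covered the background step, offset, filter, probe rule, variance prior, block and arrays.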

Additional observations from a re-analysis of the deposited data

Results flagged for a closer look

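Cyp2u1 had differences of opposite sign at the 2 times on Dox, -0.44 at 24 h and 0.18 at 48 h (log2, arrays labelled LIXs minus WT). It was the 1 tested member of 38 with that pattern. Its probe read 131 at 24 h and 143 at 48 h under the LIXs label, and 145 and 137 under the WT label, all close to the detection level of 129, and its second probe gave 0.21 and 0.03. With 1 array per group the difference between times was not tested.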

How the results depend on the processing

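Against 14 members called higher and 673 genes called in all, 0 of either were called without the time block (25 members and 1810 genes at an unadjusted p under 0.05), without a filter on dim probes (30 and 2918), or with all 6 arrays (11 and 373). The counts were 26 and 1670 without background correction, 26 and 1432 with an intensity trend in the prior, and 21 and 1281 with an offset of 50. With 3 arrays the time block leaves no residual degree of freedom, so leaving out 1 array also drops the block, and these counts stand beside the 0 and 0 of all 4 arrays without it. They ran over 0 to 9 members and 0 to 287 genes: 0 and 0 without LIXs at 24 h, 0 and 23 without LIXs at 48 h, 4 and 247 without WT at 24 h, and 9 and 287 without WT at 48 h. Of the 14, 11 were still called without background correction, 12 with the offset of 50 and 14 with the trend. Averaging all detected probes kept 13, but of the 14 only Cyp2g1, the one lost, had a further detected probe. In all fits the 14 kept a difference above 0 where tested, and 0 members were called lower. The fit with the time block pairs LIXs and WT arrays by time on Dox, and its 14 calls are not made without that pairing. Between 2 arrays, without background correction the members at least 2-fold higher on the array labelled LIXs numbered 3 at 24 h and 0 at 48 h, those refed against fasted 2 higher and 1 lower (also with an offset of 50), and those lower at 48 h on the LIXs arrays 0. With detection on both arrays, refed against fasted gave 3 higher and 2 lower. Probes near the detection level carry the least information.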
